A study of Mus musculus with 6 samples.

Results

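Hemoglobin genes and genes of nucleated erythroid precursors were examined in dental pulp of mice with and without MMP13. The 9 genes were taken by symbol from the 53342 genes of the deposited table. They are the adult alpha globins Hba-a1 and Hba-a2, the adult beta globins Hbb-bs and Hbb-bt, and 5 genes of erythroid precursors (Alas2, Slc4a1, Epb42, Klf1 and Gata1), and all 9 had a row and passed the filter on low counts. Pulp RNA was sequenced from 3 WT mice (replicates 2, 4 and 5) and 3 Mmp13-/- mice (replicates 1, 2 and 6) with a C57BL/6 background, aged 3 months, and each library came from its own biological sample. The mice were male, the Mmp13-/- mice were homozygous for the loss of the gene, and no treatment is named for either genotype. The labels of both genotypes name molars and the study's methods name incisors, and whether blood was washed from the pulp is not given in the sources used here.

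Erythrocytes form in bone marrow and spleen from precursors that switch on the transcription factors GATA1 and KLF1, accumulate heme and globin, and then lose their nucleus. Mature hemoglobin pairs alpha chains with beta chains in equal number, and mouse reticulocytes still carry globin messenger RNA after the nucleus is gone. The vessels of the pulp carry blood, whereas KLF1 and GATA1 act in nucleated precursors.

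The targeted gene was checked first. Mmp13 (ENSMUSG00000050578) stood at 36.8, 39.1 and 30.1 CPM in the WT samples and at 0.317, 1.10 and 2.31 CPM in the Mmp13-/- samples, where CPM is a count normalised to the library size with TMM factors. Libraries held 28442936 to 29980236 counts in WT and 21561420 to 26547121 counts in Mmp13-/-, and 3 counts, taken as the floor of detection for counting error only, corresponded to at most 0.173 CPM. Mmp13-/- replicate 6 stood apart from the other libraries. The predicted gene Gm10800 took 30.5% of its counts, against 3.89% and 6.88% in Mmp13-/- replicates 1 and 2 and at most 0.0277% in WT. Odorant and vomeronasal receptor genes, which sensory neurons of the nose use, summed to 1595 CPM in Mmp13-/- replicate 6, to 292 and 353 CPM in the other Mmp13-/- samples and to at most 49.3 CPM in WT. Results on the 9 genes are also given below without Mmp13-/- replicate 6 and with the receptor rate subtracted as background. Any further part of these differences in the results on erythroid genes was not tested, and library batch cannot be told apart from genotype.

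The globin genes come in near-identical copies. Hba-a1 (chr11:32283511-32284465) and Hba-a2 (chr11:32296489-32297298) lie in the alpha globin cluster on the plus strand of GRCm38, and Hbb-bs (chr7:103826534-103828096) and Hbb-bt (chr7:103812524-103813996) lie in the beta globin cluster on the minus strand. The alpha copies have coding sequences of 426 bases that differ at 1 base, and the beta copies have coding sequences of 441 bases that also differ at 1 base. The stretches of 41 coding bases around those single differences are shown because they are all that separates the copies within the coding sequence, with the differing base in capitals. Positions in GRCm38 are chr11:32284323-32284363 and chr11:32297140-32297180 for the alpha copies and chr7:103826672-103826712 and chr7:103812663-103812703 for the beta copies.
Hba-a1: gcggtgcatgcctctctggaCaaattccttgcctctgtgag
Hba-a2: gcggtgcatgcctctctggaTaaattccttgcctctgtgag
Hbb-bs: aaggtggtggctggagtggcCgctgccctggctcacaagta
Hbb-bt: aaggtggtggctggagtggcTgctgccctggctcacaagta
Over whole transcripts the alpha copies matched at 99.81% of aligned bases and the beta copies at 92.65%, so the beta copies are told apart mainly outside the coding sequence. Counts of single copies are uncertain where the authors' counting shared reads between them, and the copies are therefore also given as sums.

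The beta globins were far higher in Mmp13-/- pulp. Hbb-bs was measured at 112, 90.3 and 168 CPM in WT replicates 2, 4 and 5 and at 1416, 1465 and 718 CPM in Mmp13-/- replicates 1, 2 and 6. The lowest Mmp13-/- value, in replicate 6, was above each WT value. Its log2 fold change was 3.28 (standard error, SE, 0.34, adjusted p = 0.000121 in edgeR's quasi-likelihood test, n = 3 per genotype), a 9.73-fold increase. Hbb-bt rose alongside it, from 70.5, 59.7 and 107 CPM to 641, 641 and 328 CPM. The Hbb-bt log2 fold change was 2.76 (SE 0.32, adjusted p = 0.000164 by edgeR). With both copies summed before the fit, beta globin was 8.57-fold higher in Mmp13-/- (log2 fold change 3.10, adjusted p = 0.000149 by edgeR). In bulk tissue, more cells that contain an RNA and more RNA per cell cannot be told apart, which holds for each value given here.

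The alpha globins had smaller changes. Hba-a1 was measured at 342, 404 and 561 CPM in WT, against 867, 866 and 499 CPM in Mmp13-/-. Mmp13-/- replicate 6 lay below WT replicate 5, so the genotypes overlapped. The log2 fold change of Hba-a1 was 0.77 (SE 0.27, adjusted p = 0.0369 by edgeR), under the 2-fold limit, and with the copies summed it missed the threshold (log2 fold change 0.72, adjusted p = 0.0543 by edgeR). Leaving out WT replicate 2, WT replicate 4, Mmp13-/- replicate 1 or Mmp13-/- replicate 2 also moved the adjusted p of Hba-a1 over the threshold, to between 0.122 and 0.184 by edgeR. Hba-a2 had 322, 368 and 517 CPM in WT against 741, 727 and 437 CPM in Mmp13-/-, with the same overlap. Its log2 fold change was 0.66 (SE 0.26, adjusted p = 0.0586 by edgeR), which missed the threshold.

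**Figure D1:**
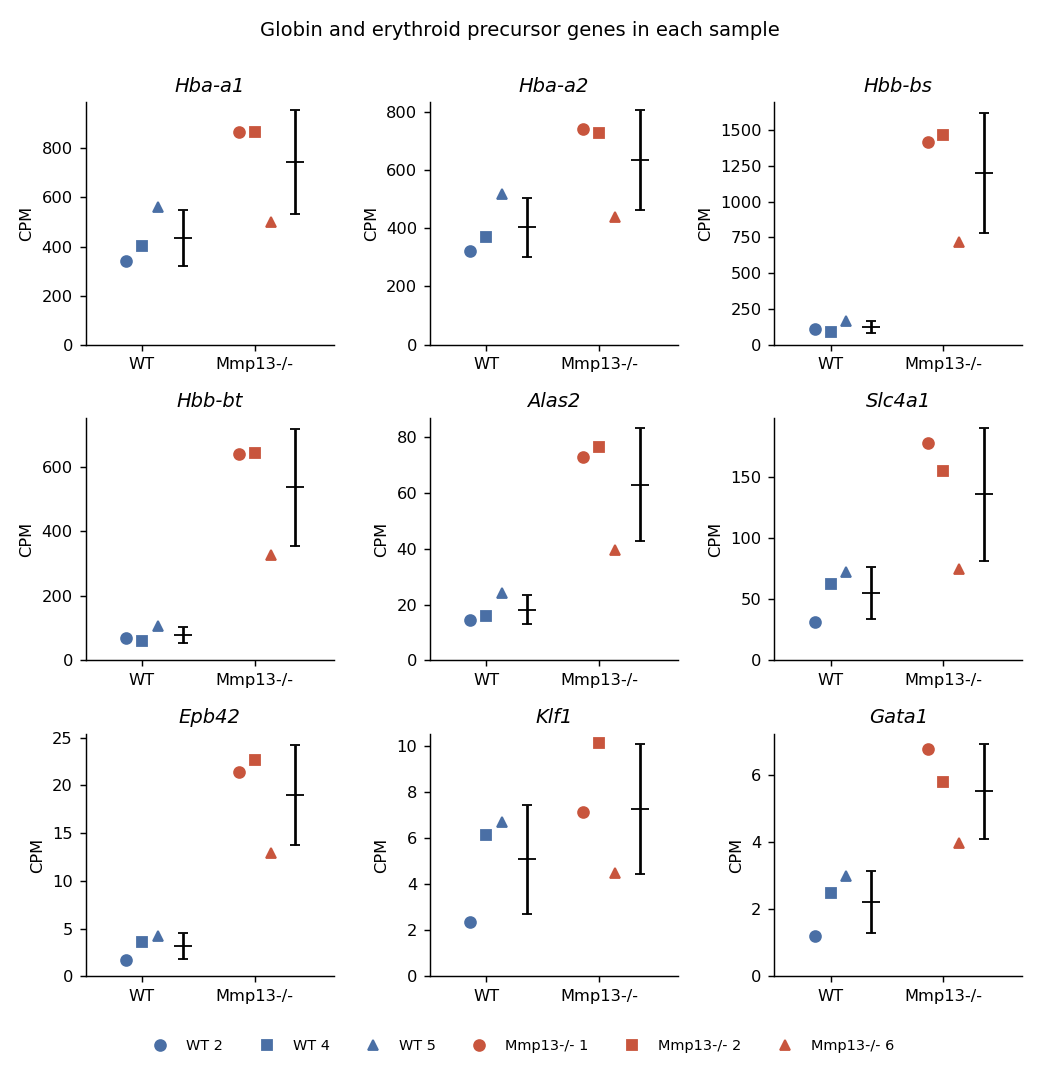
CPM (counts normalised to library size with TMM factors, linear axes from 0) of the 9 genes in each of the 3 WT (blue) and 3 Mmp13-/- (red) samples, with black marks for the mean and bars for the SD. The genotypes do not overlap for Hbb-bs, Hbb-bt, Alas2, Slc4a1, Epb42 and Gata1, and they overlap for Hba-a1, Hba-a2 and Klf1.

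The balance of alpha to beta globin RNA lay far apart between the genotypes. This ratio was chosen after the values of the single genes had been seen. Per kilobase of exon, alpha globin stood at 3.68, 5.18 and 3.95 times the level of beta globin in WT replicates 2, 4 and 5. In Mmp13-/- replicates 1, 2 and 6 it stood at 0.791, 0.765 and 0.906 times the beta level. Alpha RNA exceeded beta RNA in each WT sample and, before the correction for GC content described next, was under it in each Mmp13-/- sample. Without scaling by length the ratio averaged 4.24 ± 0.80 in WT and 0.811 ± 0.074 in Mmp13-/- (SD over 3 samples), a difference of −2.37 on the log2 scale (exact two-sided permutation test, p = 0.1, the smallest p that 3 against 3 samples can give). Because both values of a ratio come from the same library, scaling factors cancel from it. Mmp13-/- replicate 6, with the most receptor RNA, lay with the other Mmp13-/- samples, and the difference was −2.45 without it. Counting error is small here, since the lowest beta copy count was 1742 (Hbb-bt in WT replicate 4). The beta globin symbols Hbb-b1 and Hbb-b2 were looked for as well and had no row. Whether the genotypes differ in the sequence of their beta globin genes, or in how reads map to them, was not tested, and either would touch this ratio.

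GC content moved with genotype and touches this ratio. Alpha globin transcripts have 57.2% (Hba-a1) and 56.9% (Hba-a2) GC and beta globin transcripts 51.3% (Hbb-bs) and 50.8% (Hbb-bt). Over 945 genes between 56% and 58% GC the median log2 fold change was −0.91, and over 1126 genes between 50% and 52% GC it was −0.43. With a per-sample correction for GC content the alpha to beta ratio was 3.58 ± 0.55 in WT and 0.954 ± 0.062 in Mmp13-/- (SD, n = 3), a log2 difference of −1.90. With it the Mmp13-/- replicates 1, 2 and 6 had ratios of 0.928, 0.910 and 1.03, so that alpha RNA exceeded beta RNA in replicate 6. The same correction raised the log2 fold changes of Hba-a1 and Hba-a2 to 1.75 and 1.61 (adjusted p = 0.000774 and 0.000878 by edgeR), past the 2-fold limit, and those of Hbb-bs and Hbb-bt to 3.77 and 3.20. Whether the alpha globins rose by over 2-fold therefore depended on the correction, while the alpha to beta ratio stayed lower in every Mmp13-/- sample than in any WT sample under both.

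The quotient of the beta copies lay apart as well. Hbb-bs CPM was 1.58, 1.51 and 1.56 times that of Hbb-bt in WT and 2.21, 2.28 and 2.19 times in Mmp13-/-. The means were 1.55 ± 0.036 and 2.23 ± 0.049 (SD, n = 3; exact two-sided permutation test, p = 0.1). The Hba-a1 to Hba-a2 quotient moved less, from 1.06, 1.10 and 1.09 to 1.17, 1.19 and 1.14. These quotients were chosen after seeing the values, and how the authors' counting splits reads between copies touches both.

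**Figure D2:**
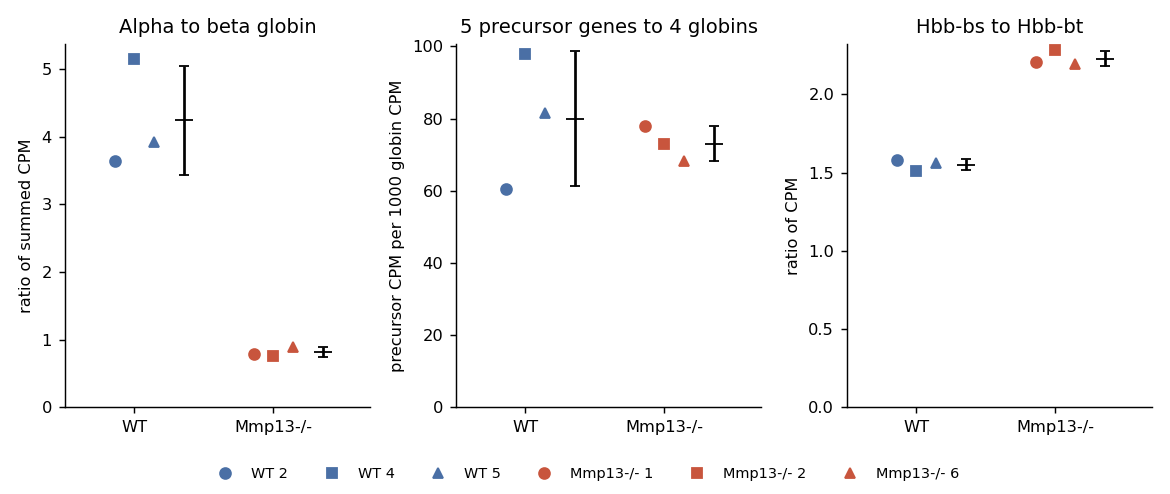
Ratios in each WT (blue) and Mmp13-/- (red) sample on linear axes from 0, with the mean and SD in black: summed alpha over summed beta globin CPM, CPM of the 5 precursor genes per 1000 CPM of the 4 globins, and Hbb-bs over Hbb-bt CPM. The first ratio lies between 3.65 and 5.15 in WT and between 0.756 and 0.895 in Mmp13-/-, the second overlaps between genotypes, and the third lies at 1.51 to 1.58 in WT and 2.19 to 2.28 in Mmp13-/-.

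The precursor genes were called higher over 2-fold in Mmp13-/- pulp as well, with Klf1 as the exception. Whether their RNA came from nucleated cells was not tested. Alas2 (ENSMUSG00000025270, chrX:150547375-150570638) encodes the erythroid enzyme for the first step of heme synthesis. It was measured at 14.4, 16.1 and 24.0 CPM in WT, against 72.8, 76.4 and 39.6 CPM in Mmp13-/-, without overlap. The log2 fold change was 1.80 (SE 0.27, adjusted p = 0.000572 by edgeR).

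Slc4a1 and Epb42 encode the anion exchanger band 3 and protein 4.2, which sit together in the red cell membrane. Epb42 (ENSMUSG00000023216, chr2:121017891-121037072) went from 1.65, 3.64 and 4.26 CPM to 21.4, 22.6 and 12.9 CPM, with a log2 fold change of 2.58 (SE 0.33, adjusted p = 0.000258 by edgeR). It was 5.99-fold higher, and its genotypes lay well apart. Slc4a1 (ENSMUSG00000006574, chr11:102348824-102366203) was measured at 31.5, 62.04 and 72.4 CPM in WT, against 178, 154 and 74.4 CPM in Mmp13-/-. Mmp13-/- replicate 6 lay barely above the highest WT sample. The log2 fold change of Slc4a1 was 1.29 (SE 0.35, adjusted p = 0.0119 by edgeR), and it fell under the 2-fold limit without WT replicate 2 (0.94) or without Mmp13-/- replicate 1 (0.99).

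The 2 transcription factors behaved differently. Gata1 (ENSMUSG00000031162, chrX:7959260-7978071), which precursors of red cells, platelets, eosinophils and mast cells all use, stood at 1.20, 2.47 and 2.98 CPM in WT, against 6.77, 5.80 and 3.98 CPM in Mmp13-/-. Its log2 fold change was 1.32 (SE 0.34, adjusted p = 0.00822 by edgeR), and 0.95 without WT replicate 2, the lowest sample. Klf1 (ENSMUSG00000054191, chr8:84901928-84905291), which is needed for adult beta globin expression and is largely restricted to the erythroid line, was measured at 2.38, 6.14 and 6.70 CPM in WT, against 7.12, 10.1 and 4.50 CPM in Mmp13-/-. The genotypes overlapped, with Mmp13-/- replicate 6 below both higher WT samples. Its log2 fold change was 0.53 (SE 0.38, adjusted p = 0.274 by edgeR), which missed the threshold. Klf1 has the highest GC content of the 9 genes, 61.1%, and 288 genes between 60% and 62% GC had a median change of −1.17 (log2). With the GC correction its log2 fold change was 1.72 (adjusted p = 0.00964 by edgeR).

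Of the 9 genes, 6 were higher over 2-fold (Hbb-bs, Hbb-bt, Alas2, Slc4a1, Epb42 and Gata1) and the other 3 had positive changes that were not called, where 20.4% of the 24534 genes tested were higher over 2-fold. At any fold 7 of 9 were higher, against 27.3% of all genes. In 6 of 9 every Mmp13-/- sample lay above every WT sample, as in 31.9% of all genes tested. The median log2 fold change was 1.32 over the 9 genes and 0.10 over all genes. With the GC correction 9 of 9 were higher over 2-fold, against 17.9% of all genes, and the medians were 2.15 and 0.33. Without Mmp13-/- replicate 6 the number over 2-fold was again 6. The rate of counts per kilobase in receptor genes, taken as background, would give 17.2% of the Gata1 counts, 11.8% of the Epb42 counts and 9.66% of the Klf1 counts in Mmp13-/- replicate 6, 1.86% or less for Slc4a1 and Alas2 and under 0.1% for each globin. With that background subtracted 6 genes were again over 2-fold.

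**Figure D3:**
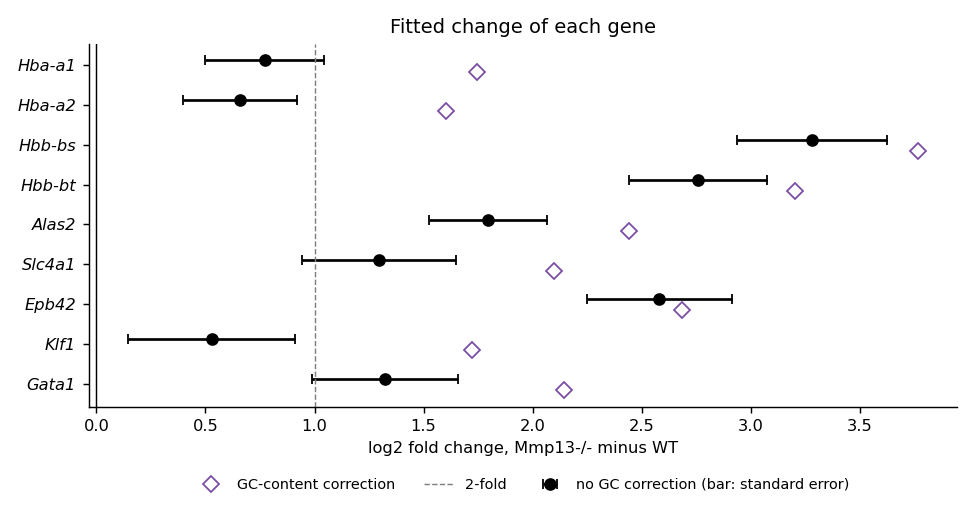
Log2 fold change (Mmp13-/- minus WT) of each gene from edgeR, with its standard error (black points and bars), and after the correction for GC content (open diamonds), with a dashed line at 2-fold. Without the correction Hba-a1 (0.77), Hba-a2 (0.66) and Klf1 (0.53) lie under 2-fold, and with it each of the 9 genes lies above.

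Set against the globins as a whole, the level of the precursor genes overlapped between genotypes. The 4 globins summed to 846, 922 and 1354 CPM in WT and to 3664, 3699 and 1983 CPM in Mmp13-/-, a difference of 1.56 on the log2 scale (exact two-sided permutation test, p = 0.1). The 5 precursor genes summed to 51.2, 90.3 and 110 CPM in WT and to 286, 269 and 135 CPM in Mmp13-/-, a difference of 1.45 (exact permutation test, p = 0.1). Most of this sum is Slc4a1 (means of 55.3 CPM in WT and 136 CPM in Mmp13-/-) and Alas2 (18.2 and 62.9 CPM), and little of it is Klf1 or Gata1. Per 1000 globin CPM, precursor genes held 60.5, 97.95 and 81.5 CPM in WT and 78.0, 72.8 and 68.3 CPM in Mmp13-/-. The Mmp13-/- samples lay inside the WT range (log2 difference −0.11, exact permutation test, p = 0.7), and without WT replicate 4 the sign of the difference turned, to 0.055.

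Against each chain alone the precursor genes lay on opposite sides, which was examined after this value had been seen. Per 1000 CPM of alpha globin, precursor genes held 77.1, 117 and 102 CPM in WT and 178, 169 and 145 CPM in Mmp13-/-. Per 1000 CPM of beta globin they held 281, 602 and 401 CPM in WT and 139, 128 and 129 CPM in Mmp13-/-. Neither pair of ranges overlapped (p = 0.1 for each, exact two-sided permutation test). Gata1 and Slc4a1 overlapped between genotypes against total globin (log2 differences −0.18 and −0.27, exact two-sided permutation tests, p = 0.6 and 0.5). Alas2 lay slightly higher in each Mmp13-/- sample (log2 difference 0.21, p = 0.1 in the same exact test), at 17.0, 17.4 and 17.7 CPM per 1000 globin CPM in WT and 19.9, 20.6 and 19.95 in Mmp13-/-. Epb42 was higher against total globin in each Mmp13-/- sample, from 1.95, 3.94 and 3.14 to 5.84, 6.11 and 6.52 CPM per 1000, and Klf1 went from 2.81, 6.66 and 4.94 to 1.94, 2.74 and 2.27. These ratios carry no correction for GC content, which is lowest in Epb42 (47.1%) and highest in Klf1 among the 9 genes. The correction raised the log2 fold change of Epb42 (to 2.68) by less than that of each globin, and that of Klf1 (to 1.72) by more. Both gaps against total globin are therefore smaller with it.

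Upstream sequence was compared because the beta globins, Alas2 and Epb42 moved together while the alpha globins and Klf1 were not called over 2-fold. Slc4a1 and Gata1 were called over 2-fold as well, and with the GC correction all 9 genes were, so the split held only without it. RefSeq windows on GRCm38.p6 were held for 8 of the 9 genes, Slc4a1 being the exception, and the 250 bases before each start site were searched on both strands for GATAA (bound by GATA factors), CACCC (bound by KLF factors) and CCAAT, and on the gene's strand for TATAA. The upstream stretches begin at most 150 bases before the start site and are shown with matches in capitals, on the gene's strand. Except for Hbb-bs, they are cut where the annotation places an exon. Matches outside them are not shown. Among these are GATAA of Hba-a2, Hbb-bs and Hbb-bt (185, 209 and 204 bases upstream), TATAA of both beta globins and CACCC of Alas2.
Hba-a2 (chr11:32296342-32296488, plus strand): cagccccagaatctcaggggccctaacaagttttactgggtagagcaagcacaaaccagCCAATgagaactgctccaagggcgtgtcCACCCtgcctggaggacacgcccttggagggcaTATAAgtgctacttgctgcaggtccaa
Hbb-bs (chr7:103827989-103828018, minus strand): CACCCtggtaagggCCAATctgctcacaca
Hbb-bt (chr7:103813997-103814073, minus strand): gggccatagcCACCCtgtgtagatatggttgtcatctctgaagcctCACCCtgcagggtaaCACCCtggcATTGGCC
Alas2 (chrX:150547267-150547374, plus strand): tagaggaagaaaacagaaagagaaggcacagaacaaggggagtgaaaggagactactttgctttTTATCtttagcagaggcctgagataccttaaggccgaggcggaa
Klf1 (chr8:84901832-84901927, plus strand): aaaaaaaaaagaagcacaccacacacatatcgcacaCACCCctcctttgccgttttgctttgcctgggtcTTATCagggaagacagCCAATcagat
The annotated Hbb-bs gene reaches over its whole stretch, which was not cut at an exon and is the 30 bases from its CACCC match. The last capitals of Hbb-bt begin a further CCAAT match that abuts the one before it. Matches to GATAA were present in 7 of the 8 windows (all but Gata1), against 22.6% of the 32851 windows in the table. Matches to CACCC were present in 7 of 8 (all but Epb42), against 52%. CCAAT matched in 5 of 8, against 33.8%, and TATAA in 5 of 8, against 16%. Both alpha and both beta globins held each of the 4 motifs, so their presence did not separate the chains. Upstream bases of the alpha copies were identical over 247 aligned bases, so these counts hold the same alpha sequence under both genes. Those of the beta copies matched at 73.3% of 243. A match is a run of letters, and binding was not measured in these samples.

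Other erythroid genes were counted in lists. Of the membrane and skeleton genes of the red cell, 6 of 15 tested were higher over 2-fold and 1 was lower, where 20.4% and 9.68% of all genes were higher and lower. Rhag, a subunit of the Rh complex, rose by 3.16 on the log2 scale and the blood group gene Kel by 2.53. Tmod1, a capping protein of actin filaments that muscle and other cells also use, was the lower one (−1.53). The median of the list was 0.55.

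Late maturation genes showed 7 of 16 higher over 2-fold by edgeR, beside 20.4% of all genes, with a median log2 fold change of 0.92. Hemgn, a nuclear protein of blood precursors, went from 2.56 ± 0.66 to 16.1 ± 6.0 CPM (SD, n = 3; log2 fold change 2.66). The carbonic anhydrase gene Car1 changed by 2.41 on the log2 scale and Trim10 by 1.88. Erythroid transcription genes showed 4 of 11 higher and 1 lower over 2-fold, beside 20.4% and 9.68% of all genes, with a median of 0.03. Myb (log2 fold change 1.78), Nfe2 (1.40), Gfi1b (1.18) and Tal1 (1.08), which also act in other blood precursors, were higher, and the corepressor gene Cbfa2t3 (−1.15) was lower. Without WT replicate 2, or without Mmp13-/- replicate 2, 2 of the 11 were higher and 2 lower. With the GC correction 6 were higher, beside 17.9% of all genes, and 0 lower. The median was then 1.13 and Cbfa2t3 stood at −0.25 (adjusted p = 0.276 by edgeR), and with upper-quartile factors 0 were lower.

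Genes of heme synthesis outside Alas2 gave no call. None of 12 passed the 2-fold limit in either direction by edgeR, where 20.4% of all genes were higher and 9.68% lower. The median change of the 12 was −0.12 (log2). At any fold 1 was higher and 2 were lower, at an unadjusted p under 0.05 1 and 3 were, and DESeq2 called 0. Without Mmp13-/- replicate 6 there was 1 higher, and without WT replicate 2, WT replicate 5, Mmp13-/- replicate 1 or Mmp13-/- replicate 2 there was 1 lower. With the GC correction 2 were higher over 2-fold, beside 17.9% of all genes, and the median was 0.61. Of 7 genes of erythropoietin signalling and iron uptake, 2 were higher over 2-fold (the transferrin receptor Tfrc, 1.92, and the iron-responsive regulator Ireb2, 1.32) and 1 was lower (the iron reductase Steap3, −1.30), with a median of 0.72. Over all genes 20.4% were higher and 9.68% lower, so both counts lay near those shares. Tfrc is used by all dividing cells. Epor, the erythropoietin receptor, had 2.58 ± 0.13 CPM in WT and 4.23 ± 1.36 CPM in Mmp13-/- (SD, n = 3; log2 fold change 0.72, adjusted p = 0.0473 by edgeR), under the 2-fold limit. With the GC correction Epor passed that limit (1.84, adjusted p = 0.00147 by edgeR), and Ireb2 (0.51) and Steap3 (−0.68) fell within it. Of the 7, 3 were then higher, beside 17.9% of all genes, and 0 lower.

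The list for heme and hemoglobin clearance, which also holds a macrophage factor and an adhesion gene, showed 5 of 11 higher and 1 lower over 2-fold. Over all genes 20.4% were higher and 9.68% lower, and the median of the list was 0.55. The 5 were Spic (3.48), a factor of iron-recycling macrophages, the adhesion gene Vcam1 (1.98), the biliverdin reductase Blvra (1.31), haptoglobin Hp (1.23) and the hemoglobin scavenger receptor Cd163 (1.12). Spic was low, and the background rate would give 57.2% of its counts in Mmp13-/- replicate 6. Heme oxygenase Hmox1 was measured at 18.5 ± 4.2 CPM in WT and 13.99 ± 1.94 CPM in Mmp13-/- (SD, n = 3; adjusted p = 0.109 by edgeR). The ferritin light chain Ftl1 was the lower one, with a log2 fold change of −1.11, and −0.06 with the GC correction. With that correction 6 of the 11 were higher, beside 17.9% of all genes, and the lower one was Slc40a1 (−1.12, adjusted p = 0.00588 by edgeR). Without it Slc40a1 stood at −0.65 and Fth1 at −0.77. Hmox1, Cd163, Ftl1, Slc40a1 and Fth1 were named after their values were seen.

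Markers of other blood cells were counted beside the erythroid genes, against the 20.4% of all genes that were higher over 2-fold. Genes of neutrophils and their precursors were higher over 2-fold in 9 of 10, with summed levels of 142 to 299 CPM in WT and 765 to 1872 CPM in Mmp13-/-. S100a9 went from 10.5 ± 3.4 to 384 ± 165 CPM (SD, n = 3), S100a8 had a log2 fold change of 4.90 and Ltf one of 1.24. Eosinophil genes, among them the granule genes Prg2 (4.75), Epx (3.27) and Ear1 (6.39), were higher in 9 of 9, with sums of 3.75 to 9.61 CPM in WT and 45.9 to 270 CPM in Mmp13-/-. Those of B cell precursors were higher in 7 of 7 tested, from sums of 4.58 to 9.02 CPM to sums of 25.6 to 38.5 CPM, with Rag1 at 2.89 and Cd79a at 1.27. Vpreb2 of that list was at 0 in each WT sample. With the GC correction 8 of 9 eosinophil genes were higher over 2-fold, beside 17.9% of all genes. In Mmp13-/- replicate 6 the background rate would give from 1.35% to 74.2% of the counts of single eosinophil genes. For the tested B cell precursor genes it would give from 12.1% to 54.7% there.

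Among megakaryocyte and platelet genes 7 of 11 were higher over 2-fold, with sums of 42.3 to 69.5 CPM in WT and 98.9 to 136 CPM in Mmp13-/-. Ppbp rose by 2.61 and Pf4 by 1.06, and Itga2b stood at 0.57, which missed the threshold. Mast cell genes were higher in 3 of 6 tested (Hdc at 1.36, Cpa3 at 2.81 and Ms4a2 at 5.48), with sums of 4.72 to 7.06 CPM in WT and 16.7 to 17.9 CPM in Mmp13-/-, and Tpsb2 stood at 0.45. The number higher was 5 with upper-quartile factors, library totals or limma, 6 with the GC correction and 1 with at least 10 counts required in every sample. Ms4a2 was at 0 in 2 of the 3 WT samples. Progenitor genes were higher in 2 of 7, beside 20.4% of all genes (Flt3 and Hoxa9, and 1 without WT replicate 2, WT replicate 5 or Mmp13-/- replicate 6), with Cd34 at 0.54, Kit at 0.29 and Meis1 at −0.27 and sums of 80.7 to 96.4 CPM against 108 to 113 CPM. The background rate would give 25.4%, 37.0% and 55.2% of the Hoxa9 counts and 10.6%, 16.3% and 41.5% of the Flt3 counts in Mmp13-/- replicates 1, 2 and 6. The part of these cells in the erythroid values was not tested. Gata1, Gfi1b, Nfe2, Tal1 and Myb are used in several of these lines, whereas Klf1 and the globins mark the erythroid line.

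Endothelial genes summed to 228 to 268 CPM in WT and to 168 to 234 CPM in Mmp13-/-. Of the 6, 1 was higher over 2-fold, beside 20.4% of all genes (Emcn at 1.47, and 0.94 with the GC correction, where 0 of 6 were higher). Pecam1 (0.09), Kdr (−0.64) and Cdh5 (−0.45) lay within 2-fold. Of 7 pulp and odontoblast genes, 4 were lower, beside 9.68% of all genes, namely Nes (−1.21) and the collagens Col1a1 (−2.16), Col3a1 (−1.58) and Col1a2 (−1.26). With the GC correction 1 of the 7 was lower. Dspp, which encodes non-collagenous proteins of the dentin matrix, was the only higher one, at 1.13, a call that was lost in DESeq2 and without WT replicate 4, WT replicate 5, Mmp13-/- replicate 1 or Mmp13-/- replicate 2, where 0 were higher. Dspp was detected at 962 ± 597 CPM in WT and 2105 ± 468 CPM in Mmp13-/- (SD, n = 3). Emcn, Nes, Dspp, Flt3, Hoxa9, Vpreb2 and Ms4a2 were named after their values were seen.

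**Figure D4:**
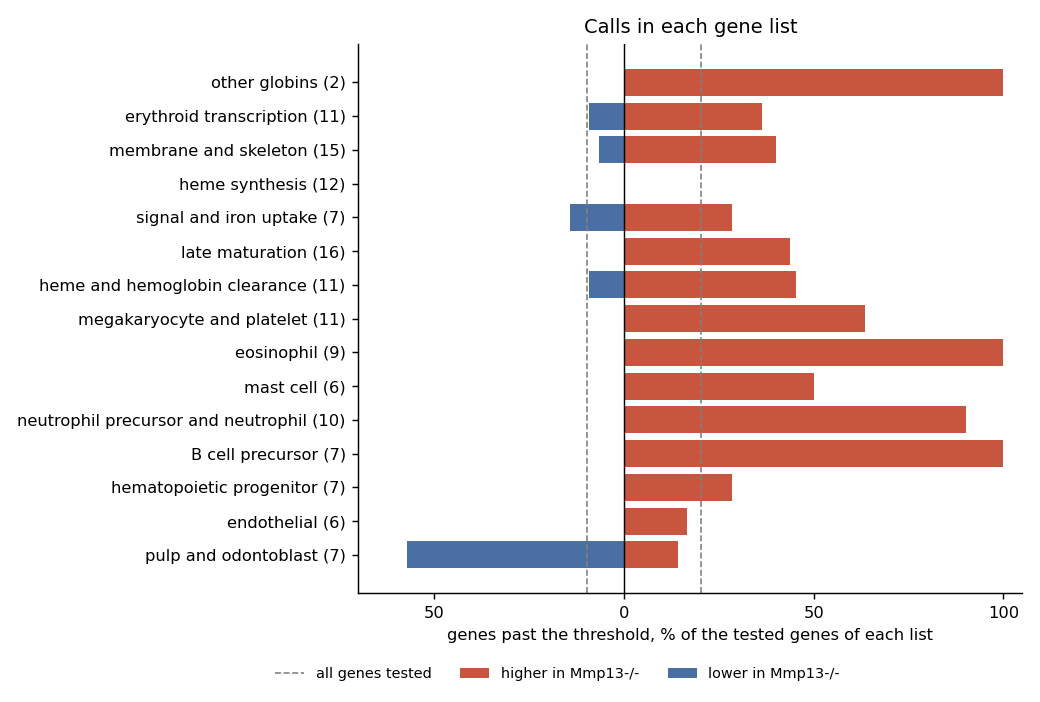
Share of the tested genes of each list (number tested in brackets) that were higher (red, to the right) or lower (blue, to the left) over 2-fold in Mmp13-/- by edgeR, in percent, with dashed lines at the shares over all genes tested, 20.4% and 9.68%. Heme synthesis has no call, and the eosinophil and B cell precursor lists have a call for every gene tested.

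Genes most like the members across the 6 samples were found by Pearson's r of log2(CPM + 1) among 12808 other genes with a mean of at least 5 CPM. For Hbb-bs these were Serp1 (r = 0.9998), Mki67 (0.9993), Klhl6 (0.9992), Top2a (0.9992) and Tmx3 (0.9991). For Alas2 they were Hist1h2af (0.9991), Klhl11 (0.9991), Hist1h4n (0.9991), Bub1b (0.9988) and Ptpn2 (0.9971). Mki67, Top2a and Bub1b are expressed in dividing cells. With 3 samples in each of 2 genotypes such values are mostly set by the gap between genotypes, and 10.2% of the genes searched had r over 0.95 with Hbb-bs and 5.25% with Alas2. Among the members, Hbb-bs and Hbb-bt had r = 0.999, Hba-a1 and Hba-a2 had r = 0.998, and Klf1 was least like the beta globins, at 0.557 with Hbb-bs.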

How the data were processed

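RNA sequencing was performed by the authors on pulp of 3 WT and 3 Mmp13-/- mice (paired reads), and the labels name the build mm10. The deposited table holds estimated counts per Ensembl gene, which the authors made in Strand NGS and which carry fractions, and log2 values that the authors scaled by DESeq and centred on each gene's median. Aligner settings and annotation release are not given in the sources used here.

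Estimated counts were rounded. Tests used edgeR 4.0.16 in R 4.3.3 (quasi-likelihood, TMM factors, filterByExpr, Benjamini-Hochberg adjustment over 24534 genes, no covariates). Calls needed an adjusted p under 0.05 and over 2-fold. Chi-square per degree of freedom between libraries of 1 genotype was 24.1 or more, so errors are the SD over samples. Library totals were 21561420 to 29980236 counts. GC content and exon length came from GENCODE M21 (GRCm38), matched for 99.8% of genes. For the GC correction, a loess with span 0.4 on genes over a log2 CPM of 3 gave offsets per sample. Background was the rate of counts per kilobase over 1728 receptor genes.

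Alternatives were RLE, upper-quartile or no factors, factors without the globins or the 10 most abundant genes, other filters, DESeq2 1.42.0, limma 3.58.1 on the log2 values, the study's gene-by-gene test with Storey's q, each sample left out, a test against 2-fold and an adjusted p under 0.01. Each fit was tested on simulated data. The study's test was limited to the genes of the edgeR fit after a simulation on all genes. At 3 per group it recovered none of the changes put in there, whereas on these data it called 8122 genes over 2-fold. That simulation therefore cannot decide how the test works on these data, and its count is not used to judge stability.

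The members and lists were chosen with earlier results of these data known. Genes named are all members, up to 4 called genes of each erythroid list with the largest change, Epor, Tfrc and Tal1, the 3 most abundant genes of each marker list, the 5 genes most like Hbb-bs and Alas2, and Mmp13. Some genes that this rule names are not reported here. Of 148 list genes 145 had a row, and the others, among them Hbb-b1 and Hbb-b2, were not analysed here.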

Additional observations from a re-analysis of the deposited data

How the results depend on the processing

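No paired analysis was possible because the genotypes share only the replicate number 2. Leaving out 1 sample at a time gave 4 to 6 members over 2-fold (6 with all samples), 7146 to 8751 genes over 2-fold (7381 with all samples), a summed globin difference of 1.35 to 1.86 on the log2 scale, an alpha to beta difference of −2.47 to −2.22, and a precursor to globin difference of −0.29 to 0.055, the last value, without WT replicate 4, being of the other sign. The GC correction moved the summed globin difference to 2.36 and the alpha to beta difference to −1.90, and with background subtraction as well they were 2.39 and −1.90. Genes over 2-fold numbered 14325 with no filter, 4666 with at least 10 counts in every sample, 3636 with GC correction and background subtraction together and 3047 in the test against 2-fold. Members over 2-fold numbered 9 with the GC correction, 5 with limma, 5 at an adjusted p under 0.01 and 4 in the test against 2-fold. Calls split 67.8% higher with TMM, 81.4% with upper-quartile factors, 76.9% with library totals, 78.6% with no filter and 88.2% with the GC correction, and the median over all genes (log2) was 0.10, 0.32, 0.21, 1.30 and 0.33 in the same order. No member's direction turned under the alternatives run. Of the member changes under them, 157 kept their side of the threshold, 9 lost it (Hba-a1, and Slc4a1 with limma) and 9 gained it (Hba-a2 and Klf1). This tally includes the study's test, which is not used to judge stability, and settings close to the main fit, such as RLE factors. The causes were not tested. With 3 samples per genotype no permutation p can go below 0.1.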

Other observations

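Embryonic and minor globins were near the floor of detection. Hbb-y, an embryonic beta-like globin, had 0 counts in all 6 libraries. Hba-x, the embryonic alpha-like globin, had 0 counts in each WT library and 3.45, 7.31 and 9.23 estimated counts in Mmp13-/- replicates 1, 2 and 6, where the background rate would give 1.53, 1.76 and 4.59. Hbb-bh1 had 0 counts in each WT library and 4.63, 2.49 and 0.925 in the Mmp13-/- libraries, where it would give at most 3.00. Neither gene passed the filter. Of the theta globins, Hbq1b had 10.4, 8.17 and 8.84 counts in WT and 41.7, 46.8 and 21.8 counts in Mmp13-/-, with a log2 fold change of 2.13 (adjusted p = 0.00247 by edgeR), and Hbq1a was higher too, on few counts in WT. Only 1 of the 2 was called when any one of WT replicates 4 and 5 and Mmp13-/- replicates 1 and 2 was left out. They are paralogs, and reads may be shared between them.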
